A study of Mus musculus with 8 samples.

Results

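Small nucleolar RNAs (snoRNAs) were examined in primordial germ cells, the embryonic precursors of eggs and sperm, that had been sorted from mouse embryos carrying or lacking a mutation of the receptor tyrosine kinase Ror2. All genes whose symbol begins with Snord or Snora were taken, provided that a probe named that gene alone, and each gene was represented by its probe of highest mean. This gave 51 snoRNAs among 19938 genes: 31 of the C/D class (Snord) and 20 of the H/ACA class (Snora). The arrays came from 4 WT (Ror2+/+) and 4 mutant (Ror2 Y324C/Y324C) embryos at embryonic day 9.5, when germ cells migrate out of the hindgut. Dams and sires were both heterozygous for Y324C, the sires were homozygous for the Oct4-ΔPE transgene, and the strain background was mixed, so each embryo of either group carried the transgene and each cell of a mutant embryo carried the mutation. The transgene marks germ cells with EGFP under part of the Oct4 regulatory region, and GFP-positive cells of the posterior part of 1 embryo went onto 1 array. The embryo is therefore the replicate. WT embryos 1 to 4 had 25, 25, 22 and 21 somites, and mutant embryos 1 to 4 had 24, 22 to 23, 23 and 21 to 22.

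SnoRNAs are short RNAs of the nucleolus that pair with precursor ribosomal RNA. Those of the C/D class guide the methyltransferase fibrillarin to riboses, and those of the H/ACA class guide the pseudouridine synthase dyskerin to uridines, while a few of either class serve the cleavage of the precursor instead. In mammals most lie inside introns of other genes, often genes of ribosomal proteins, translation factors or noncoding RNAs, and are trimmed out of the excised intron. The spliced host transcript and the snoRNA thus start as 1 primary transcript and have separate fates afterwards.

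A gene that spans the snoRNA was found in the reference table for 50 of the 51, in 40 host genes. Only Snord118, which is transcribed from a promoter of its own, had none. Many hosts belong to the class of genes whose transcription starts inside a run of pyrimidines, the terminal oligopyrimidine (TOP) genes. The starts of 6 hosts of the snoRNAs that the comparison below names are therefore shown, from RefSeq (GRCm38.p6), with 40 bases before and 20 bases from the annotated first base on. Capitals mark a run of C and T of at least 5 bases that holds or touches the first base.
Eef2 (host of Snord37), chr10:81176591-81176650, plus strand: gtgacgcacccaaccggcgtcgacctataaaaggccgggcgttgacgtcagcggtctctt
Rack1 (host of Snord96a and Snord95), chr11:48800320-48800379, plus strand: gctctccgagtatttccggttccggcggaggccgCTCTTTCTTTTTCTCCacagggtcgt
Rpl27a (host of Snora3), chr7:109519155-109519214, plus strand: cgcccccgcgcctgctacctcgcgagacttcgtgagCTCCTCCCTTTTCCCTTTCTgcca
2410006H16Rik (noncoding host of Snord49a and Snord49b), chr11:62602837-62602896, plus strand: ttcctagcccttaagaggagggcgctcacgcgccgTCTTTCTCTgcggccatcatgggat
Ipo7 (host of Snora23), chr7:110018275-110018334, plus strand: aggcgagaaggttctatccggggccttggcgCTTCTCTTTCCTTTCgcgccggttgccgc
Gm36220 (noncoding host of Snord104), chr11:106500875-106500934, plus strand: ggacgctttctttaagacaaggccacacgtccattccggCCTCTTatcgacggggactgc
In these 6 starts, all but that of Eef2 held such a run at the annotated first base. Of the 31 hosts in the promoter table, 12 (38.7%) had such a run at an annotated start, against 5026 of 27025 genes (18.6%). The match depends on the annotated base and is a description of these letters only.

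The arrays were alike in the markers that define the sorted cells. The mean of 11 germ cell markers, among them Pou5f1, Dppa3, Nanos3 and Kit, ran from 10.06 to 10.32 on the log2 scale. Markers of primitive erythroid cells (mean of 7 measured genes) were at 5.46 in WT 3 and from 4.78 to 5.19 elsewhere, and those of macrophages (7 genes) at 5.14 in WT 3 and from 4.48 to 4.89 elsewhere. WT 3 also had the narrowest distribution of values over genes (SD 1.77, against 1.82 to 1.95). In a bulk sample, fewer cells of a type and less RNA per cell cannot be told apart.

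The snoRNAs varied between embryos of the same genotype far more than most genes did. The median within-group SD was 0.83 (log2) over the 51 snoRNAs, 0.89 in the C/D class and 0.81 in the H/ACA class, and 0.24 over all genes. All 51 lay above this gene median, and 43 of 51 lay above the 95th percentile of genes (0.56). Genes of like mean, from 5.37 to 8.90, had a median SD of 0.28, so the snoRNAs were also wider than genes of their own signal range. The range over the 8 arrays exceeded 2 log2 units for 39 of 51 snoRNAs (76.5%) and for 501 of 19938 genes (2.51%). Of 12 other short or structural RNAs (spliceosomal, Cajal body and similar RNAs), 4 had such a range, and their median SD was 0.42. Across the 51 snoRNAs, Spearman's rho of the SD was -0.22 with the annotated length (45 to 205 nt) and -0.37 with the mean. These are descriptions across genes measured on the same 8 arrays, and genes are not independent replicates. Whether column purification or amplification of short RNA adds to this spread was not tested.

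**Figure D1:**
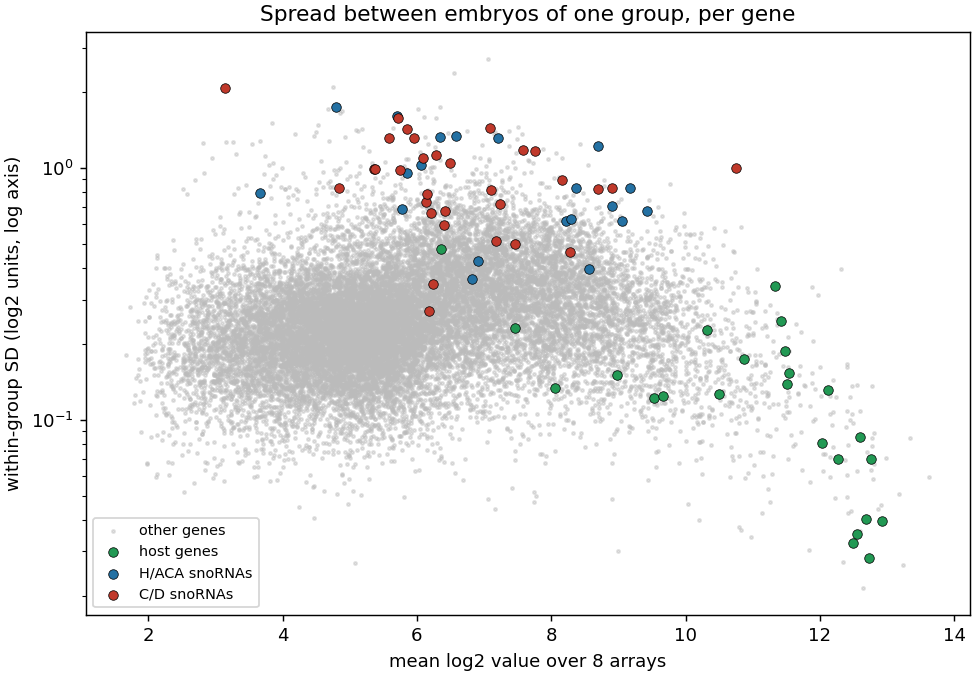
Within-group SD (log2 units, log axis) against the mean log2 value over 8 arrays, 1 point per gene. The C/D (red) and H/ACA (blue) snoRNAs have median SDs of 0.89 and 0.81, and their measured hosts (green) 0.13.

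Snord61, a C/D snoRNA in the X-linked gene Rbmx, had the largest range. It was at 8.22 in mutant 2 and between 1.93 and 3.21 in the other 7 arrays, so that a single embryo stood above all the rest. Snord49a was at 9.03 in WT 4 and between 5.22 and 6.75 elsewhere, again with 1 array far above the others. In the H/ACA class, Snora69 (host Rpl39) read 5.40, 6.46, 4.08 and 3.46 in WT 1 to 4 and 5.57, 7.16, 3.85 and 2.38 in mutants 1 to 4. Its groups thus overlapped, with lows and highs in both, and the mutants passed the WT range at both ends. Snora16a, in the noncoding host Snhg12, was at 9.06 in WT 3 and from 4.92 to 7.57 elsewhere. Snora31, in the translationally controlled gene Tpt1, was at 8.25 in mutant 2 and from 4.24 to 6.25 elsewhere. The snoRNAs of narrowest spread were Snord55 (SD 0.27), Snord8 (0.34) and Snora70 (0.36). They were chosen after their values were seen.

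**Figure D2:**
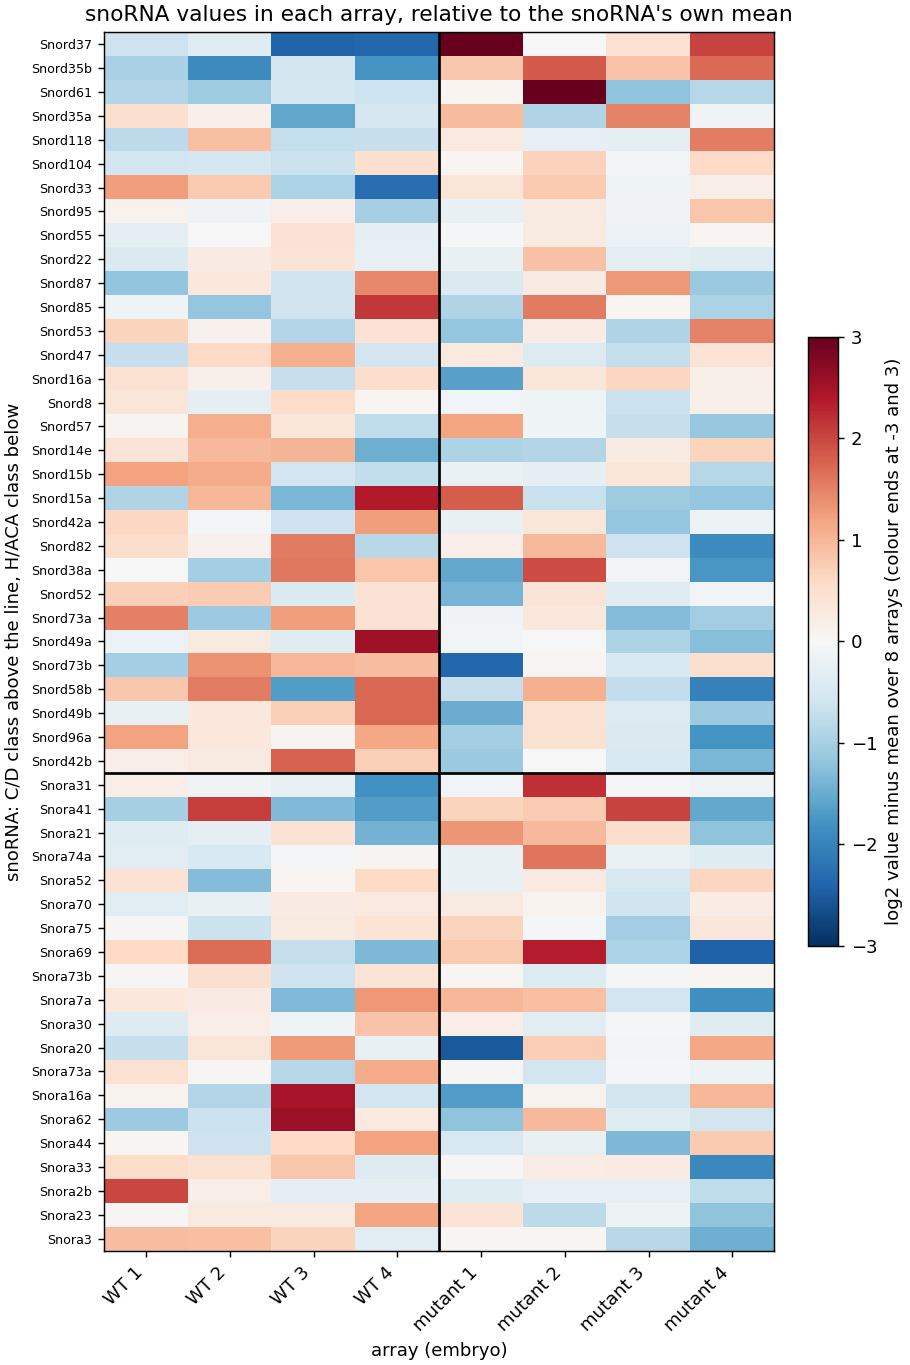
Each row is 1 snoRNA and each column 1 array. Colour gives the log2 value minus that snoRNA's mean over the 8 arrays, with rows ordered by mutant minus WT inside each class. Single dark cells, such as Snord61 in mutant 2 (8.22) and Snora16a in WT 3 (9.06), mark embryos far from the other 7 for that snoRNA. WT 3 is also far above the rest for Snora62 (8.93), the row beside Snora16a.

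The main comparison asked whether snoRNA levels differ between mutant and WT germ cells. None passed limma at an adjusted p under 0.05 over all genes (0 of 51 snoRNAs, with 0% of all genes called). At an unadjusted limma p under 0.05 there were 8 snoRNAs (15.7%), of which 3 were higher and 5 lower in mutants, against 4.68% of all genes (2.72% higher and 1.96% lower). Among the 9843 genes of like mean the share was 6.16%, with 430 higher and 176 lower. The 4 mutant values lay wholly on 1 side of the 4 WT values for 3 snoRNAs (5.88%, all C/D), against 2.52% of all genes. Of these, 2 were higher (1.08% of all genes) and 1 lower (1.44% of all genes). Limma moves each gene's variance toward a common value, which set the SD of a typical snoRNA to 0.78 times its own. Without this step, 2 snoRNAs were higher and 2 lower at p under 0.05 (7.84%), against 4.51% of all genes. These 4 were Snord35b and Snord37 (higher) and Snord42b and Snord96a (lower), all of the C/D class. The count at the unadjusted threshold thus depended on how the spread was estimated.

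Snord35b, a C/D snoRNA of 87 nt, separated the groups most clearly. It read 5.42, 4.49, 5.84 and 4.63 in WT 1 to 4 and 7.22, 8.24, 7.24 and 8.09 in mutants 1 to 4. Each mutant was above the highest WT by more than 1 log2 unit. The difference was 2.60 ± 0.34 (SE; 95% interval 1.85 to 3.35), with a limma p of 1.23e-05 and an adjusted p of 0.246. It had the smallest p of all genes. Snord35a, the related snoRNA in Rpl13a, was at 5.84, 5.51, 3.80 and 4.85 in WT and 6.29, 4.45, 6.85 and 5.25 in mutants, with overlapping groups and a difference of 0.71 (interval -0.49 to 1.91).

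Snord37, in an intron of the elongation factor gene Eef2, read 5.35, 5.59, 3.55 and 3.61 in WT and 9.24, 5.94, 6.43 and 7.98 in mutants. The groups did not overlap, but mutant 2 exceeded WT 2 by less than the spread inside either group. The difference was 2.87 ± 0.71 (SE; interval 1.30 to 4.45), with a limma p of 0.00218 and an adjusted p of 0.973. Snord42b, in the ribosomal protein gene Rpl23a, went the other way. It read 6.63, 6.69, 8.20 and 7.13 in WT and 5.31, 6.41, 5.95 and 5.05 in mutants, and mutant 2 lay nearest to the WT values. The difference was -1.48 ± 0.38 (SE; interval -2.32 to -0.65; limma p 0.00258, adjusted p 0.973), and it was -0.93 without WT 3 and mutant 4.

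Snord96a, Snora3, Snord49b and Snora23 had a lower mean in mutants, and Snord104 a higher one, with overlapping groups. Snord96a, 1 of a pair in Rack1, a scaffold protein of the ribosome, read 7.37, 6.48, 6.24 and 7.31 in WT and 5.13, 6.62, 5.72 and 4.37 in mutants. Only mutant 2 reached the WT range. The difference was -1.39 ± 0.44 (SE; limma p 0.00894). Snora3, in Rpl27a, read 10.37, 10.33, 10.10 and 9.12 in WT and 9.50, 9.49, 8.59 and 7.96 in mutants, and the overlap came from WT 4. Its difference was -1.09 ± 0.38 (limma p 0.0148). Snord49b read 8.67, 9.23, 9.62 and 10.63 in WT and 7.41, 9.35, 8.49 and 7.82 in mutants, with mutant 2 inside the WT range, and differed by -1.27 ± 0.46 (limma p 0.0195). Snora23, in the nuclear import receptor gene Ipo7, read 9.09, 9.32, 9.32 and 10.23 in WT and 9.45, 8.26, 8.89 and 7.83 in mutants, where mutant 1 lay inside the WT range. It differed by -0.88 ± 0.35 (limma p 0.0287). Snord104 read 7.71, 7.77, 7.65 and 8.77 in WT and 8.35, 8.98, 8.20 and 8.88 in mutants, where WT 4 overlapped the mutants, and differed by 0.63 ± 0.27 (limma p 0.0414). These 5 had a limma adjusted p of 0.973 as well.

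**Figure D3:**
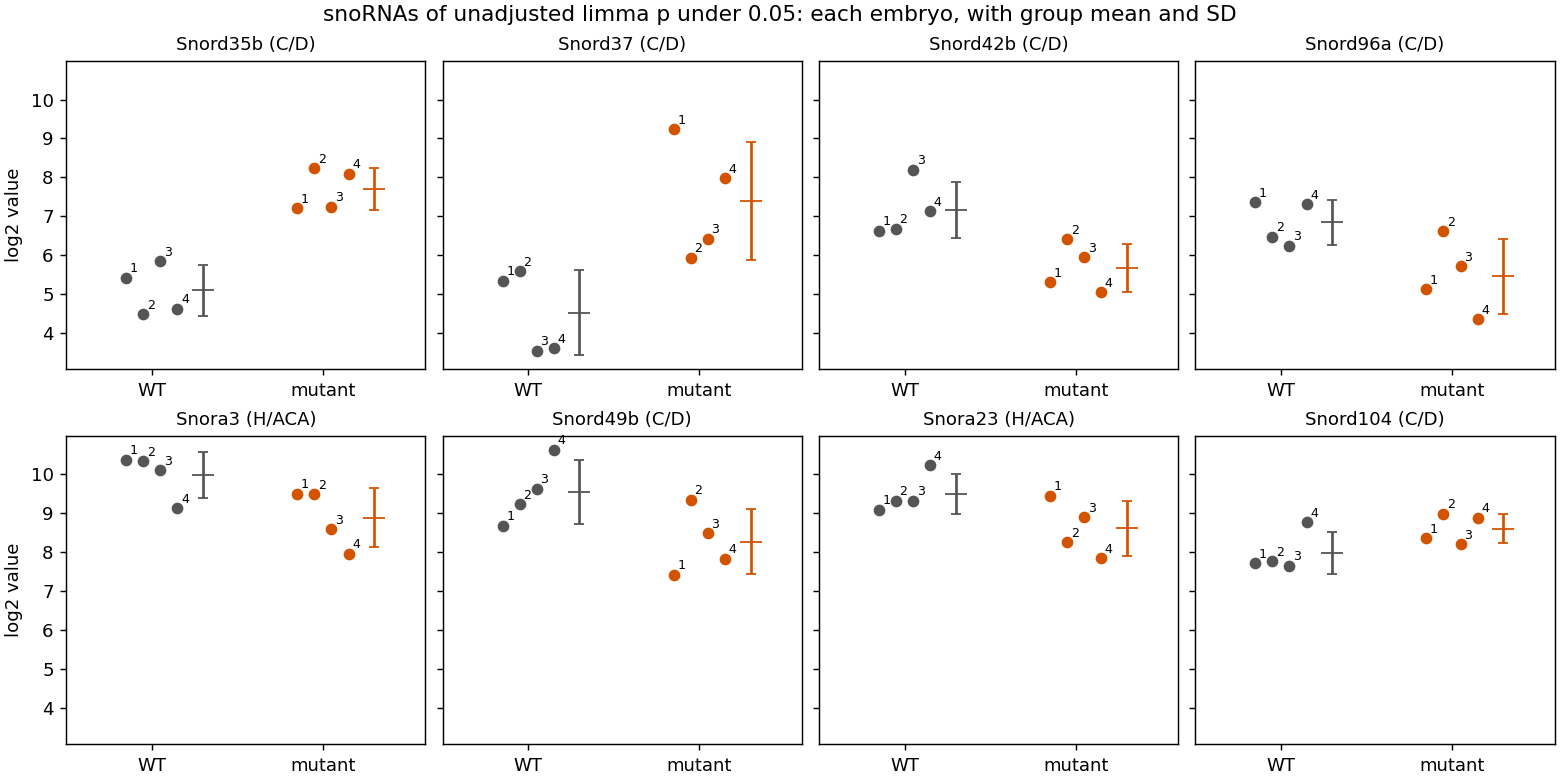
Log2 values of the 8 snoRNAs of unadjusted limma p under 0.05, 1 point per embryo with its replicate number, and the mean with SD (n = 4) of each group. Snord35b, Snord37 and Snord42b are the 3 whose groups do not touch, and in Snord42b, Snord96a and Snord49b mutant 2 is the mutant nearest to WT.

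Over all members the mean was more often lower in mutants. In the C/D class 20 of 31 differences were below 0 and their median was -0.35, and in the H/ACA class 15 of 20 were below 0 with a median of -0.26. The median over all genes was -0.02, with 11036 of 19938 below 0. Both class medians lay on the same side of 0, and whether the classes differ was not tested. The C/D median was -0.20 without WT 2 and -0.057 without WT 3 and mutant 4 together, and the H/ACA median was -0.058 without WT 4 and -0.42 without mutant 2. Leaving out single arrays thus moved the size of both medians and not their sign. The lower count at the unadjusted threshold was 11 without WT 3 and 8 without mutant 2, in place of 5. The share of all genes was not counted without these arrays, so whether the rise is particular to snoRNAs is not known. The markers of erythroid cells had a lower mean in mutants too, with 0 of 7 above 0 and a median of -0.25, as had those of macrophages (1 of 7 above 0, median -0.20). Their part in the snoRNA differences was not tested. The 12 other short or structural RNAs had 1 difference above 0 and a median of -0.18. Of 300 microRNA precursors, 210 had a difference below 0, with a median of -0.086. Differences above 0 made up 30% of these precursors and 31.4% of the snoRNAs, so the lean in sign was not particular to snoRNAs.

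The level of each class was also read array by array. The C/D median was 6.75, 6.69, 6.60 and 7.13 in WT 1 to 4 and 6.29, 6.82, 6.43 and 6.24 in mutants 1 to 4. The H/ACA median was 6.61, 7.59, 7.65 and 7.45 in WT and 7.15, 7.79, 7.07 and 7.14 in mutants. Mutant 2 was therefore above the other mutants in both classes, and inside or above the WT range. Averaged over arrays, the class median in mutants minus WT was -0.35 for C/D and -0.04 for H/ACA. On this measure the H/ACA class differed less than by the median of its single differences (-0.26). For C/D snoRNAs, 21 of 31 were above their own mean in mutant 2, and 8 of 31 in mutant 3. For H/ACA snoRNAs the corresponding counts were 13 and 3 of 20. Mutant 4 held the lowest value of 14 snoRNAs (8 C/D and 6 H/ACA), and mutant 2 of 0. The median log2 value of all genes was 5.55 in mutant 2, inside the span of the other arrays (5.51 to 5.73).

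Host transcripts were compared next, since a snoRNA and its host begin as 1 transcript. A host with its own probe was available for 28 snoRNAs, in 24 genes. The host's within-group SD was smaller than that of its snoRNA in 28 of 28 pairs, with a median SD of 0.13 over hosts. The snoRNA's difference between groups was the larger of the pair in 24 of 28, though a wider SD by itself makes this likelier. The median difference over the 28 snoRNAs was -0.37 and over their hosts 0.06, and snoRNA minus host was lower in mutants in 21 of 28 pairs. Since the hosts varied so much less, this last count largely repeats the sign of the snoRNA's own difference and is no separate evidence. Of the 24 hosts, 17 had a difference above 0. Many host values lie near the top of the scale (up to 12.93 as a mean, where the highest value of the table was 13.83), and whether they are compressed there was not tested.

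**Figure D4:**
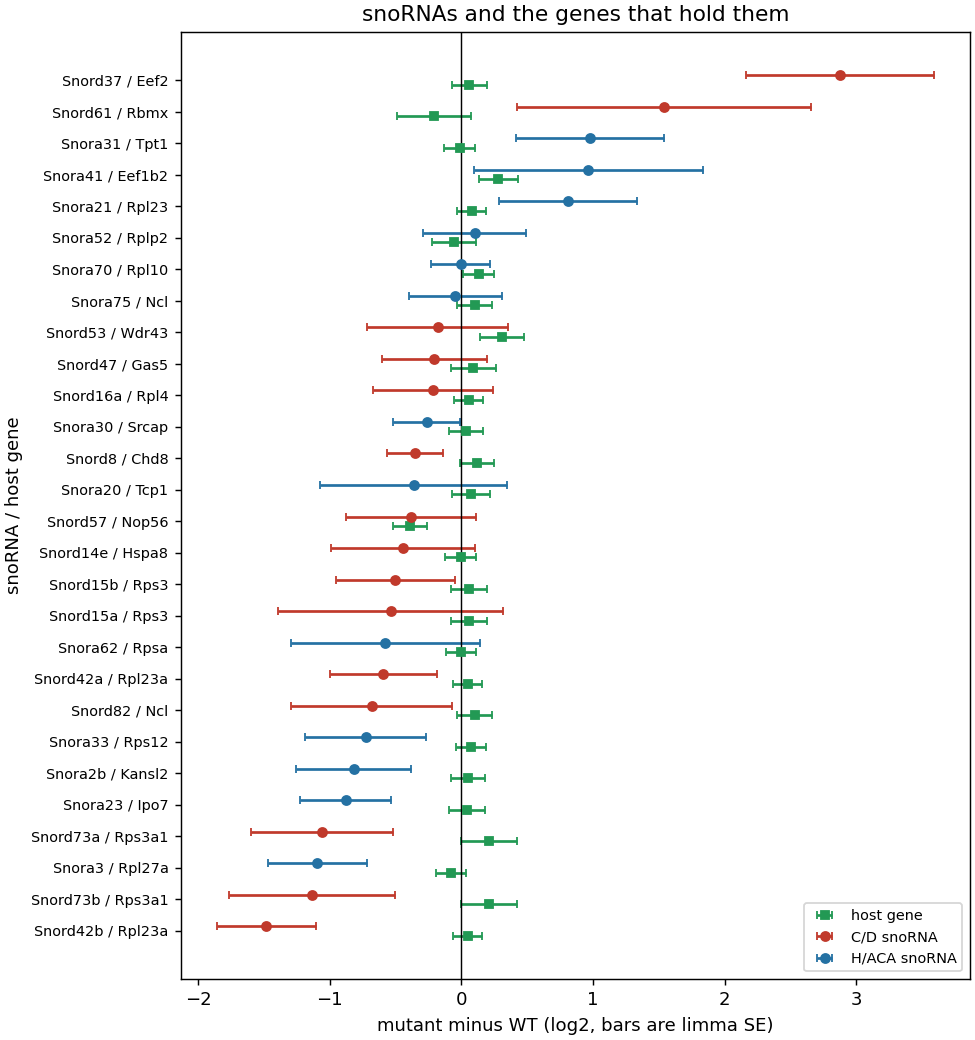
Mutant minus WT (log2, limma SE) for 28 snoRNAs (circles) and the host gene that spans each (green squares). Host differences stay between -0.39 (Nop56) and 0.31 (Wdr43), while those of the snoRNAs run from -1.48 (Snord42b) to 2.87 (Snord37).

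Eef2 ranged over 0.36 log2 units where its Snord37 ranged over 5.69. Snord37 minus Eef2 was -6.85, -6.41, -8.36 and -8.66 in WT and -2.87, -6.14, -5.83 and -4.19 in mutants, without overlap and with mutant 2 nearest to WT. Rpl23a differed by 0.05 ± 0.11 (SE) and ranged over 0.15. Snord42b minus Rpl23a was -6.06, -5.96, -4.43 and -5.53 in WT and -7.38, -6.36, -6.74 and -7.61 in mutants, also without overlap. These 2 were the only pairs of 28 whose groups did not overlap on this difference. Their snoRNAs did not overlap before the subtraction either, and the hosts ranged over only 0.36 and 0.15. The subtraction could therefore change little, and it is no separate evidence. Nop56, which is both the host of Snord57 and a core protein of C/D particles, was the host with the largest difference, at -0.39 ± 0.13 (limma p 0.0124, adjusted p 0.973). It read 10.83, 10.64, 10.55 and 10.79 in WT and 10.27, 10.29, 10.49 and 10.20 in mutants, with no overlap. Its Snord57 differed by -0.38 ± 0.49, the same size with wide error. Rpl23 and Rpl27a also had groups that did not overlap, in opposite directions and by 0.08 and -0.08 (limma p 0.500 and 0.489). This made 3 of 24 hosts without overlap (12.5%, 1 higher and 2 lower), against 2.52% of all genes (1.08% higher and 1.44% lower). The sign for Rpl27a was that of its Snora3, whose difference was -1.09. Gas5, the noncoding host of Snord47, differed by 0.09 ± 0.17 (SE) and Snord47 by -0.20 ± 0.40. Gas5 was not typical of a wider list of 20 noncoding host genes, of which 8 were measured. Of these 8, 6 had a difference below 0, with a median of -0.20 and a median SD of 0.54. None of the 8 had an unadjusted limma p under 0.05.

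There were 10 hosts with a pair of measured snoRNAs, which allowed 2 products of 1 transcript to be set beside each other. The pair in the noncoding gene Snhg3 moved most closely together. Snora73a minus Snora73b, which serve the cleavage of the precursor for the small subunit, ranged from -0.80 to 0.36 over the arrays. The sequences of this pair are closely related, and whether each probe reads both was not tested. In the other 9 pairs the difference between the partners ranged over at least 2.49 log2 units. In Rps3, Snord15a minus Snord15b ran from -3.49 in WT 1 to 1.72 in WT 4. In Rps3a1, Snord73a minus Snord73b ran from -4.83 in WT 2 to 0.13 in WT 1. In both pairs the difference thus varied by over 4 log2 units between embryos of 1 genotype, while its sign says nothing of which RNA is the more abundant, since the probes differ. In Rack1, Snord95 differed between groups by 0.39 ± 0.30 (SE) and Snord96a by -1.39 ± 0.44, and the difference between them ran from -1.13 in WT 4 to 3.64 in mutant 4. In Rpl23a, Snord42a differed by -0.59 ± 0.41 and its partner Snord42b by -1.48 ± 0.38. WT 3, where Snord42b was highest (8.20), had the lowest Snord42a of the WT embryos. In Rpl13a, Snord33 and Snord35a differed by 0.61 ± 0.64 and 0.71 ± 0.54. In 2410006H16Rik, Snord49a and Snord49b differed by -1.13 ± 0.57 and -1.27 ± 0.46, and in Snhg12, Snora16a and Snora44 by -0.57 ± 0.72 and -0.63 ± 0.46. Without WT 3, Snora16a differed by 0.16, so its direction rested on that embryo.

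SnoRNAs that serve cleavage of the precursor showed no difference beyond the spread. Snord14e, in the chaperone gene Hspa8, is needed for the small-subunit RNA, and had the highest mean signal of the C/D probes. It read 11.13, 11.73, 11.77 and 9.29 in WT and 9.84, 9.88, 11.00 and 11.41 in mutants, with lows in both groups (difference -0.44, interval -1.65 to 0.76). Snord22, in Snhg1, another small-subunit factor, differed by 0.02 (interval -0.62 to 0.66). Snord118, needed for the large-subunit RNA, read 4.05, 5.73, 4.13 and 4.15 in WT and 5.12, 4.59, 4.57 and 6.37 in mutants, and differed by 0.65 (interval -0.36 to 1.66). Snora73a and Snora73b differed by -0.38 (interval -1.15 to 0.39) and -0.16 (interval -0.69 to 0.37). The intervals still allow differences of about 1 log2 unit for most of these.

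The 28 snoRNAs outside the rule for named members had 21 differences below 0, from -1.19 to 0.81, and 17 of them ranged over more than 2 log2 units. In the C/D class, Snord58b, in the ribosomal protein gene Rpl17, was the lowest at -1.19 (interval -2.90 to 0.52), and both snoRNAs of Rps3a1 followed. In the H/ACA class, Snora62, in Rpsa, was the lowest at -0.58 (interval -2.17 to 1.01), while its host ranged over 0.095. Snora62 was at 8.93 in WT 3 and from 5.14 to 7.32 elsewhere, and without WT 3 its difference was 0.19, so the direction rested on that embryo. The direction turned with 1 array left out for 14 of these 28. Snora21, in Rpl23, was the highest at 0.81 (interval -0.35 to 1.97), with 7.17, 6.81, 6.38 and 4.65 in mutants and 4.44 to 6.28 in WT. Intervals of the 28 had a median width of 1.99 log2 units. Each had to include 0, since the rule had taken out all snoRNAs of unadjusted limma p under 0.05.

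Other members of high or low signal overlapped between the groups as well. Snord16a, in Rpl4, differed by -0.22 (interval -1.23 to 0.79), with mutant 1 at 7.08 and the other arrays between 8.0 and 9.34. Snora33, in Rps12, was at 7.24 in mutant 4 and between 8.80 and 10.01 elsewhere, and differed by -0.73 (interval -1.74 to 0.29). Snora2b, in Kansl2, was at 5.67 in WT 1 and between 2.89 and 3.86 elsewhere (difference -0.82, interval -1.79 to 0.15). Snora41, in Eef1b2, was high in WT 2 (7.79) and mutant 3 (7.74) and as low as 4.03 in WT 4. In each of these 4, 1 or 2 embryos set the range.

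Somite number, which stages embryos of this age, entered the limma model beside genotype. None of the 51 slopes passed at an adjusted p under 0.05 (0% of all genes called). At an unadjusted limma p under 0.05 there were 13 snoRNAs (25.5%), of which 9 had a positive and 4 a negative slope, against 9.74% of all genes (5.02% positive and 4.72% negative). Among the 9843 genes of like mean the share was 12.2%, with 821 positive and 384 negative, so positive slopes were the more frequent there too. Without moving the variances, the count was 3 of 51 (5.88%) against 9.0% of all genes, so the excess over the background was not seen under that model. Snord15b, in Rps3, had the smallest p, with a slope of 0.46 ± 0.07 per somite (SE; limma p 0.000136, adjusted p 0.255). It read 6.37 at 21 somites and 6.52 at 22 in WT, 8.29 and 8.22 at 25, and 6.24 to 7.46 in mutants. Its partner Snord15a had a slope of 0.01 ± 0.32.

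Snord33, in Rpl13a, one of a group of snoRNAs known to mediate lipotoxic stress, had a slope of 0.62 ± 0.13 (limma p 0.000886, adjusted p 0.312). It read 8.82 and 8.36 in the WT embryos of 25 somites, 6.63 at 22 and 5.29 at 21, while the mutants stayed between 7.45 and 8.36. The order by somites was thus visible among WT embryos and not among mutants, a difference that was not tested. Snora44, in Snhg12, had a slope of -0.40 ± 0.11 (limma p 0.00568, adjusted p 0.418), with 9.58 at 21 somites and 8.42 and 7.75 at 25 in WT and 7.02 to 9.15 in mutants. Snord49b had a slope of -0.33 ± 0.13 (limma p 0.0313, adjusted p 0.485). The median slope was -0.04 in the C/D class and -0.01 in the H/ACA class, beside -0.02 over all genes. Slopes of markers were above 0 for 1 of 8 hindgut, 0 of 8 trunk mesenchyme and 1 of 5 endothelial genes. The counts were 1 of 7 for erythroid cells, 1 of 7 for macrophages and 6 of 11 for germ cells, and 8070 of 19938 over all genes. The part of other cell types in the snoRNA slopes was not tested. Among hosts, Gas5 had a slope of -0.14 ± 0.04 (limma p 0.0101, adjusted p 0.428).

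**Figure D5:**
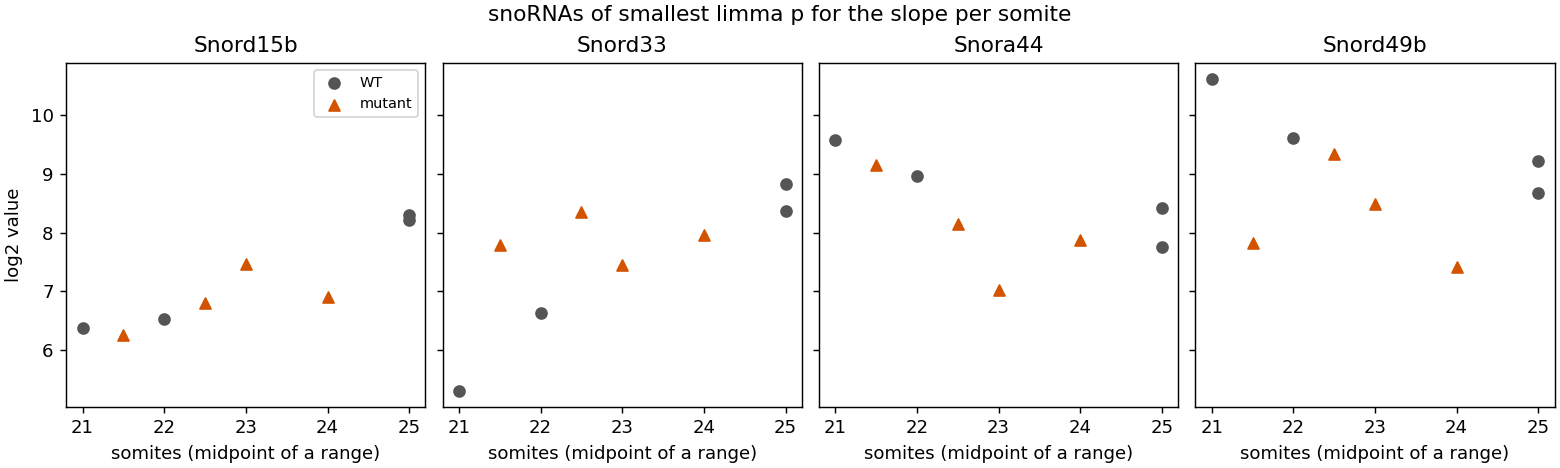
Log2 value against somite number (midpoint where the label gives a range) for the 2 snoRNAs of smallest slope p in each direction. Circles are WT and triangles mutant embryos. Snord15b is above 8 only in the 2 embryos of 25 somites, and Snord33 is lowest in the WT embryos of 21 and 22 somites.

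Genes whose proteins build and use snoRNA particles were described by list, and 0 of their members passed at an adjusted limma p under 0.05. The share of all genes at an unadjusted p under 0.05, against which the single members below are set, was 4.68% (2.72% higher and 1.96% lower). Of the C/D core proteins, 4 of 5 listed symbols were measured. The methyltransferase Fbl differed by 0.27 ± 0.14 (SE), the scaffold protein Nop58 by -0.00 ± 0.14, Snu13, which binds the C/D fold, by -0.04 ± 0.14, and Nop56 as above. Of the 4 H/ACA core proteins, the pseudouridine synthase Dkc1 differed by 0.03 ± 0.19, Gar1 by -0.00 ± 0.12, Nhp2 by 0.09 ± 0.18 and Nop10 by 0.12 ± 0.12. None of these 8 but Nop56 had an unadjusted p under 0.05. Among 12 assembly factors 1 was higher at an unadjusted p under 0.05, Tcof1, the nucleolar protein treacle, at 0.51 ± 0.20 (limma p 0.0266). Among 10 nucleolar and polymerase I genes it was the shared polymerase I and III subunit Polr1c, at 0.45 ± 0.18 (limma p 0.0351). No member of the lists of precursor cleavage (23 genes) or intron and exonuclease trimming (8 genes) had an unadjusted p under 0.05. The debranching enzyme Dbr1 differed by 0.22 ± 0.19 and the nuclear exosome subunit Exosc10 by -0.44 ± 0.22.

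For 5 snoRNAs a further probe named the same gene. Whether the probes of a gene share sequence was not tested, so their likeness is no independent check. The probes of Snora3 differed between groups by -1.09 and -1.09, those of Snord58b by -1.19 and -1.17, and those of Snora21 by 0.81 and 0.85. The probes of Snora30 gave the same difference, -0.26, and those of Snord118 0.65. The values of Snora30 and of Snord118 were identical between their probes in each array, so those pairs give no separate reading. A further 41 probes named a snoRNA together with another gene, and 18 snoRNA symbols occurred only there. They were not used here.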

How the data were processed

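The table deposited by the authors holds 1 value per probe and array, taken to be log2 from its range, since no unit is named. No label or file header names the normalization. Per the labels' protocols, RNA was isolated on RNeasy Micro columns and amplified with the NuGEN Ovation FFPE WTA system. Of 35557 probes, 21789 named 1 gene and 1621 several. Each gene was represented by its probe of highest mean. Values were tested as deposited with limma 3.58.1 in R 4.3.3 over 19938 genes (Benjamini-Hochberg, threshold 0.05), for mutant minus WT and for the slope per somite with genotype in the model. The scripts were tested on simulated data. All 51 snoRNAs matched RefSeq gene IDs. A host is the gene whose span holds the snoRNA. The table gives no strand, so for 3 snoRNAs inside several genes the textbook host was taken. The host of 1 snoRNA is not reported here. The members and lists were chosen with earlier results of these data known. Values in every array are given for snoRNAs of unadjusted p under 0.05, the 3 of highest and lowest mean and of largest range in each class, and the 2 of smallest slope p per direction, in part as ranges. The number of arrays limits the precision, and there are no scanner values to set a detection limit.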

Additional observations from a re-analysis of the deposited data

Results flagged for a closer look

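In 7 of 102 groups of 4 embryos, 1 value stood apart from the other 3 by more than Dixon's critical gap. Chance flags about 1 in 20 groups. Mutant 2 was the high embryo for Snora31 (8.25, the other mutants 5.95 to 6.0), Snora74a (7.38, others 5.40 to 5.57) and Snord22 (8.35, others 7.09 to 7.24). Snora33 was low in mutant 4 (7.24, others 9.21 to 9.41), and Snord15a high in mutant 1 (7.53, others 4.55 to 5.05). In WT, Snord104 was high in WT 4 (8.77, others 7.65 to 7.77) and Snord118 in WT 2 (5.73, others 4.05 to 4.15).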

How the results depend on the processing

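Over 17 alternatives, 0 genes passed for mutant minus WT, and Snord35b kept its direction, with differences from 2.40 to 2.85 and limma adjusted p from 0.127 to 0.9998. Snord37 ran from 2.26 to 3.36 and Snord42b from -1.72 to -0.93. With 1 array left out, 2 to 4 snoRNAs were higher and 4 to 11 lower at an unadjusted p under 0.05, groups without overlap numbered 2 to 3 higher and 1 to 3 lower, and 0 to 2 genes passed for the somite slope. Deviations of same-numbered embryos had correlations of -0.19 to 0.10, and only for replicate 4 was the same-numbered embryo the best match. With so few embryos, this cannot tell whether equal replicate numbers pair them. With the replicate number as a block, 5 snoRNAs were higher and 8 lower at that threshold, and Snord35b had a limma adjusted p of 0.558. Without WT 3 and mutant 2, a choice made after seeing the data, 2 were higher and 8 lower, and without moving the variances, likewise chosen afterwards, 2 and 2. Without WT 3 and mutant 4, the C/D median difference was -0.057, 2 snoRNAs were lower with no overlap and 5 genes passed for the slope. Except for the fit without moving the variances, the share of all genes was not counted under these settings. With fewer arrays the groups of any gene separate more readily. These snoRNA counts therefore have no background beside them and show only how the counts moved. The direction turned for Snora69 with somites as a covariate (0.24), with array weights (0.083) and without WT 3 and mutant 4 (0.42). With 1 array left out it turned for 18 of the 51 snoRNAs, 14 of them outside the 23 named by rule, and among the 23 for Snora69 (-0.92 to 0.68), Snora16a (-0.99 to 0.16), Snord16a (-0.49 to 0.29) and Snord33 (-0.056 to 1.12). The cause was not tested. Signal over background was not analysed here, so a snoRNA of low signal may be unmeasured.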
